A study of Mus musculus with 7 samples.

Results

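Renal glucose transporters are described here as 6 genes, chosen by name from the 17537 genes listed for 7 mouse kidney libraries: the sodium-coupled carriers *Slc5a1* (SGLT1), *Slc5a2* (SGLT2) and *Slc5a10* (SGLT5), and the facilitative carriers *Slc2a1* (GLUT1), *Slc2a2* (GLUT2) and *Slc2a5* (GLUT5). All 6 were listed, and all 6 were among the 13976 genes tested. Polyadenylated RNA from whole renal tissue of C57BL/6 mice was sequenced in non-diabetic controls (C, n = 3, replicates 2, 8 and 9), in diabetic mice (DM-22, n = 2) and in diabetic mice whose SGLT2 was inhibited for the last weeks (DM+SGLT2i, n = 2). The study asked which expression changes persist once blood glucose has been lowered. Mice were 8 to 10 weeks old at the start, and those of both diabetic groups received streptozotocin, which destroys insulin-producing beta cells, at 60 mg/kg on 5 days, while controls received its citrate buffer. The DM-22 mice stayed hyperglycemic until 22 weeks, and the DM+SGLT2i mice drank dapagliflozin, which blocks the SGLT2 protein, at 25 mg/kg for 6 weeks from week 16. The labels give male mice only, whereas the methods give mice of both sexes. Non-diabetic mice given the inhibitor and mice taken at 16 weeks were not analysed here.

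The kidney filters glucose into the primary urine and takes nearly all of it back in the proximal tubule. SGLT2, in the early segments (S1 and S2), carries most of it across the luminal membrane together with sodium, SGLT1 in the late segment (S3) recovers the remainder, and GLUT2 and GLUT1 let glucose leave on the blood side. SGLT5, which carries mannose and fructose, and GLUT5, which carries fructose, take up other sugars, and the sodium gradient that drives the SGLT proteins is kept up by the sodium pump.

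Expression was given in CPM, reads of a gene relative to the library total after scaling by a factor for each library (TMM, 0.891 to 1.08). The libraries held 46456125 to 56541594 reads on the listed genes. The members carried 2138 to 40198 reads per library, so counting error was small beside the differences between mice. Fold changes came from limma on log2(CPM + 0.5) with p-values adjusted over all genes tested. The labels do not state that each library came from a separate mouse, so the p-values measure the spread between these libraries. One control, replicate 2, stood apart from replicates 8 and 9 in these genes and in cell markers, so each comparison with controls was made with all 3 controls and again with replicates 8 and 9 alone. This choice was made from the same values that were then compared. The p-values and intervals with replicates 8 and 9 alone do not allow for it.

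The genes lay on GRCm38 as follows. *Slc5a1* (ENSMUSG00000011034) was at chr5:33104219-33162870 on the forward strand and *Slc5a2* (ENSMUSG00000030781) at chr7:128265657-128272430, also forward. *Slc5a10* was at chr11:61672781-61720826 on the reverse strand. *Slc2a1* (chr4:119108711-119137983), *Slc2a2* (chr3:28697903-28731359) and *Slc2a5* (chr4:150119283-150144169) were on the forward strand. *BC017158*, on the opposite strand, shared 597 exonic bases (20.6%) with *Slc5a2*, and *Fam83g* shared 393 (16.6%) with *Slc5a10*. The library kit keeps strand, but whether the counting used it is not given in the sources used here. These neighbours were low, at 21.3 to 34.4 CPM for *BC017158* and 5.33 to 23.7 CPM for *Fam83g*.

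The bases just upstream are shown for 2 pairs of members: *Slc5a1* and *Slc5a10*, whose levels ran most closely together over the libraries, and *Slc2a1* and *Slc2a2*, whose levels ran in opposite directions. Each is part of the 250 bases before a RefSeq start (GRCm38.p6), read 5′ to 3′ on the gene's strand, without bases inside an annotated exon of the gene. They cover chr5:33103969-33104218 (*Slc5a1*), chr11:61720827-61721049 on the reverse strand (*Slc5a10*, first start), chr4:119108495-119108710 (*Slc2a1*) and chr3:28697653-28697902 (*Slc2a2*). Capitals mark any match on either strand. The motifs searched were the core of the site for the factor HNF1, GTTAAT, the E-box, which is read by basic helix-loop-helix factors and has the letters CACGTG, the GC box bound by Sp1 and its relatives, written GGGCGG, and the TATA box of core promoters, written TATAAA.
Slc5a1: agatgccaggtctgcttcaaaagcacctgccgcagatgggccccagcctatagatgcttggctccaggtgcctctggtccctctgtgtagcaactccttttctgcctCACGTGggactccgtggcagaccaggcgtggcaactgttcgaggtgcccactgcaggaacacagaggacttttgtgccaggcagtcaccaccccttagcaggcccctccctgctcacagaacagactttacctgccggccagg
Slc5a10: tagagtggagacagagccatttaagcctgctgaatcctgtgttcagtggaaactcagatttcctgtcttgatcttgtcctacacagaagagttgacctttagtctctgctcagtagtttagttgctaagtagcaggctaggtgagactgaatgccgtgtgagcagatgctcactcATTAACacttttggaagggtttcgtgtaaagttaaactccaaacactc
Slc2a1: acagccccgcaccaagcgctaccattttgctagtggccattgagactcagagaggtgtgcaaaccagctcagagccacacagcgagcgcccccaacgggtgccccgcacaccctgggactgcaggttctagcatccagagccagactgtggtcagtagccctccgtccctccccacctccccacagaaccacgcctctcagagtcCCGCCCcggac
Slc2a2: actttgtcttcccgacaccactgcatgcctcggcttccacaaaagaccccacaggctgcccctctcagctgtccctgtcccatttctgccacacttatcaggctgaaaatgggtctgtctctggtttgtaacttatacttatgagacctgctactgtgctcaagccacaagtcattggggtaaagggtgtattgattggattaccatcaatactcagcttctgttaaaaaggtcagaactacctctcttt
The *Slc5a1* window held CACGTG, a motif present in 6.02% of 32851 such windows, and the *Slc5a10* window held GTTAAT on the other strand, present in 6.43%. The full *Slc2a1* window had 2 matches to GGGCGG, 1 of them in bases left off above, and the *Slc2a5* window had 3, of which 2 adjoin; 32.7% of windows had at least 1. Neither the *Slc2a2* window nor that of a second *Slc5a10* start held any of the 4 motifs, and TATAAA (12.4% of windows) was in none of the members. *Slc5a1* and *Slc5a10* had none of the 4 motifs in common, and a link between upstream motifs and levels was not tested. G and C made up 60% of the *Slc5a1* window, 45.6% of the first *Slc5a10* window, 66.4% of those of *Slc2a1* and *Slc2a5*, and 47.2% of that of *Slc2a2*, against a median of 52.4% over all windows. *Slc5a2* had no entry.

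*Slc5a2*, the target of the drug, varied most of the 6 genes, and it did so within groups rather than between them. It was at 169, 748 and 664 CPM in C replicates 2, 8 and 9, at 274 and 930 CPM in DM-22 replicates 1 and 2, and at 509 and 479 CPM in DM+SGLT2i replicates 1 and 2. The lowest library was thus a control and the highest an untreated diabetic one, 5.49-fold apart, with the treated mice in the middle and close to each other. The mean was 527 ± 312 CPM in C (SD, n = 3), 602 ± 463 in DM-22 (n = 2) and 494 ± 21.5 in DM+SGLT2i (n = 2). The log2 difference between DM+SGLT2i and DM-22 was -0.03 ± 0.83 (SE, 95% interval -2.02 to 1.95, adjusted p = 0.997), an interval that also holds 3-fold changes either way. Against controls it was 0.20 ± 0.76 in DM-22 and 0.17 ± 0.76 in DM+SGLT2i, and with controls 8 and 9 alone both estimates lay below 0, at -0.48 ± 0.54 and -0.51 ± 0.54 (adjusted p = 0.597 and 0.648).

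*Slc5a10*, whose product SGLT5 carries mannose and fructose, showed nearly the opposite order. Its level was 709, 226 and 199 CPM in C replicates 2, 8 and 9, 505 and 205 CPM in DM-22, and 545 and 524 CPM in DM+SGLT2i. The libraries fell into a high range, from 505 to 709 CPM, and a low range, from 199 to 226 CPM, and both ranges held control and DM-22 mice. DM+SGLT2i exceeded DM-22 by 0.73 ± 0.68 and C by 0.75 ± 0.62 on the log2 scale (adjusted p = 0.881 and 0.9997), so neither difference passed the test. The first value rested on which DM-22 mouse was kept, being 0.0814 without DM-22 replicate 2 and 1.38 without DM-22 replicate 1. Against controls 8 and 9 the difference was 1.33 ± 0.40 in DM+SGLT2i (95% interval 0.33 to 2.32), with an unadjusted p of 0.0173 and an adjusted p of 0.190.

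*Slc5a1*, which encodes the high-affinity carrier SGLT1, followed *Slc5a10* at a lower level. It stood at 188, 82.7 and 70.2 CPM in C replicates 2, 8 and 9, at 114 and 77.3 CPM in DM-22, and at 144 and 148 CPM in DM+SGLT2i. Both treated mice exceeded both DM-22 mice and controls 8 and 9, and control replicate 2 exceeded them all. The mean was 146 ± 3.03 CPM in DM+SGLT2i, 95.7 ± 26.0 in DM-22 and 114 ± 64.7 in C. DM+SGLT2i was higher than DM-22 by 0.63 ± 0.46 on the log2 scale (95% interval -0.47 to 1.74, adjusted p = 0.881) and higher than C by 0.50 ± 0.42 (adjusted p = 0.9997). The former value was 0.35 without DM-22 replicate 2 and 0.91 without DM-22 replicate 1. With controls 8 and 9 alone it was higher than C by 0.93 ± 0.21 (95% interval 0.43 to 1.44), with an unadjusted p of 0.00420 and an adjusted p of 0.131, while DM-22 differed from those controls by 0.30 ± 0.21 (adjusted p = 0.394).

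**Figure D1:**
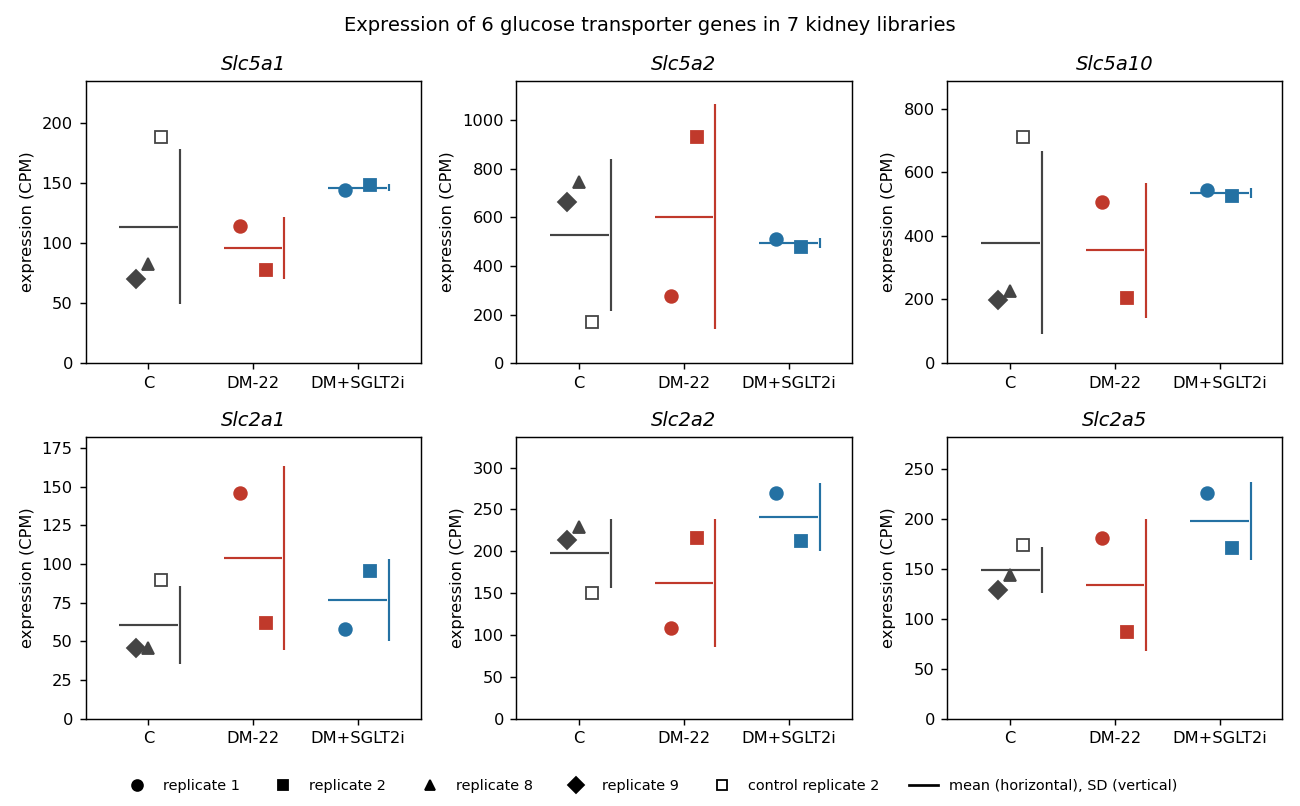
Expression in CPM (vertical axes, from 0) of each transporter gene in the 3 groups (horizontal axes), 1 point per library, with the group mean as a horizontal line and the SD as a vertical line. Control replicate 2 (open square) is the lowest library for *Slc5a2*, at 169 CPM, and the highest for *Slc5a1* and *Slc5a10*, at 188 and 709 CPM.

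*Slc2a1*, encoding the widely expressed carrier GLUT1, was highest in a DM-22 mouse. It was at 89.7, 45.8 and 45.7 CPM in C replicates 2, 8 and 9, at 146 and 61.8 CPM in DM-22, and at 58.1 and 95.7 CPM in DM+SGLT2i. All 4 diabetic libraries lay above controls 8 and 9, and 2 of the 4 lay below control replicate 2. DM-22 was higher than C by 0.73 ± 0.47 on the log2 scale (95% interval -0.39 to 1.84, adjusted p = 0.804), and by 1.05 ± 0.43 when controls 8 and 9 were used alone (95% interval -0.01 to 2.10, unadjusted p = 0.0513, adjusted p = 0.201). With all controls it was 0.11 without DM-22 replicate 1 and 1.34 without DM-22 replicate 2. DM+SGLT2i differed from DM-22 by -0.35 ± 0.51 (adjusted p = 0.912), and the sign of this value rested on single libraries, since it was 0.27 without DM-22 replicate 1 and 0.0098 without DM+SGLT2i replicate 1.

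*Slc2a2*, encoding the basolateral carrier GLUT2 of the early proximal tubule, was lowest in the mouse in which *Slc2a1* was highest. Its level was 150, 229 and 213 CPM in C replicates 2, 8 and 9, 108 and 216 CPM in DM-22, and 270 and 213 CPM in DM+SGLT2i. The groups overlapped, and 4 of the 7 libraries lay between 213 and 229 CPM. DM+SGLT2i was higher than DM-22 by 0.65 ± 0.37 (95% interval -0.23 to 1.52, adjusted p = 0.881) and DM-22 differed from C by -0.35 ± 0.33 (adjusted p = 0.820). The difference between the diabetic groups was 0.15 without DM-22 replicate 1 and 1.15 without DM-22 replicate 2.

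*Slc2a5*, encoding the fructose carrier GLUT5, was the most even of the members among controls. It stood at 174, 144 and 129 CPM in C replicates 2, 8 and 9, at 181 and 86.7 CPM in DM-22, and at 226 and 170 CPM in DM+SGLT2i. The DM-22 mice were the ones furthest apart, 2.08-fold, and on either side of all controls. DM+SGLT2i was higher than DM-22 by 0.65 ± 0.36 (95% interval -0.21 to 1.5, adjusted p = 0.881) and higher than C by 0.41 ± 0.33 (adjusted p = 0.9997). Without DM-22 replicate 2 the former value was 0.12, and without DM-22 replicate 1 it was 1.17.

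Taking the members as a list, 0 of 6 passed an adjusted p of 0.05 in any comparison, where 0% of all genes passed in DM-22 against C, in DM+SGLT2i against C, in DM+SGLT2i against DM-22 and in all diabetic mice against C. At an unadjusted p under 0.05, 0 of 6 members stood beside 4.47%, 1.08%, 3.91% and 2.04% of all genes in the same order. By limma-voom on the recovered reads, 0 members were called either. The estimates were above 0 for 3 of 6 members in DM-22 against C (median -0.06 on the log2 scale, against 0.00447 over all genes), for 6 of 6 in DM+SGLT2i against C (median 0.39, against -0.01) and for 4 of 6 in DM+SGLT2i against DM-22 (median 0.64, against 0.00451). With 1 library left out at a time, the sign of the DM-22 against C estimate changed for 5 of 6 members, *Slc2a1* being the exception, whereas in DM+SGLT2i against C it changed for *Slc5a2* alone. Each pair of these comparisons shares the mice of 1 group, so their estimates are not independent.

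With controls 8 and 9 alone, 0 of 6 members again passed an adjusted p of 0.05, where 0.0143% of genes did so in DM-22 against C, 0.122% in DM+SGLT2i against C, 0% in DM+SGLT2i against DM-22 and 0.2% in all diabetic mice against C. Unadjusted, 0 of 6 members passed in DM-22 against C, where 25.2% of genes did. *Slc5a1* and *Slc5a10* passed in DM+SGLT2i against C, 2 of 6 where 17.9% of genes did, and again in all diabetic mice against C, 2 of 6 where 24.8% did. *Slc5a1* alone passed in DM+SGLT2i against DM-22, 1 of 6 where 10.8% did. Leaving out replicate 2 narrowed the interval of *Slc5a1* in that last comparison, which holds no control, because all groups share 1 estimate of the spread.

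**Figure D2:**
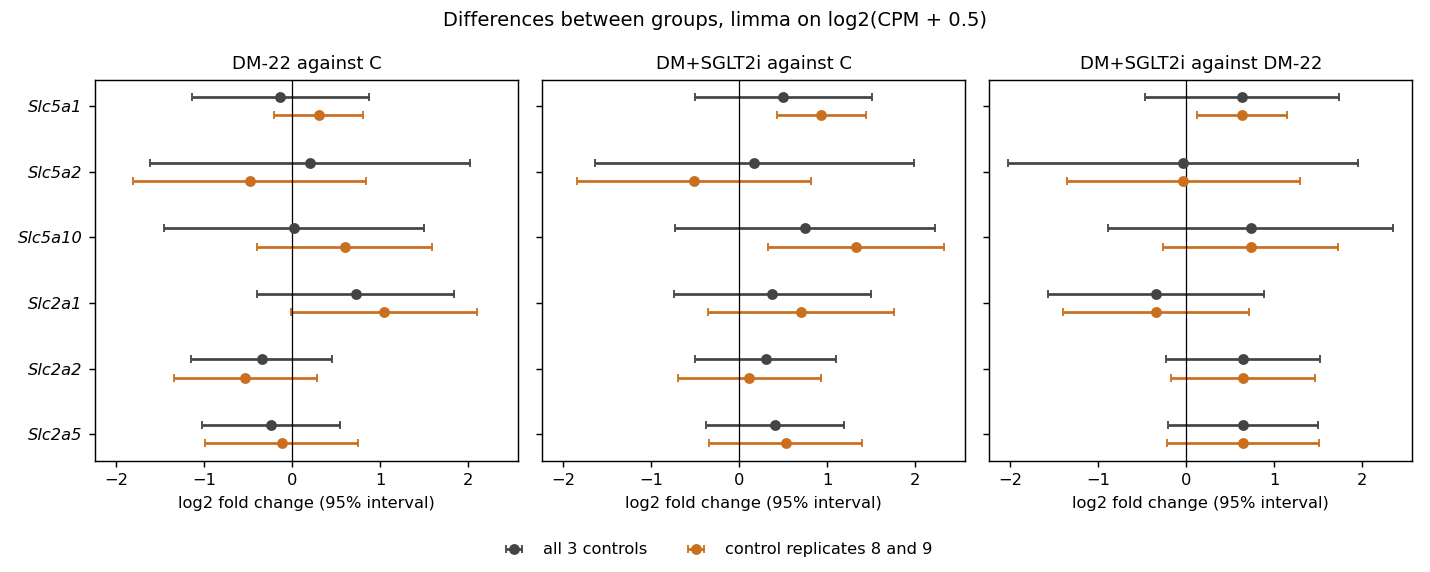
Log2 fold changes of the 6 genes (points) with 95% intervals (bars) for 3 comparisons, with all 3 controls (dark) and with control replicates 8 and 9 alone (orange). With all controls every interval spans 0, whereas with 2 controls those of *Slc5a1* (0.43 to 1.44) and *Slc5a10* (0.33 to 2.32) in DM+SGLT2i against C lie above it. Control replicate 2 was left out after its values were seen, and the intervals do not allow for that choice.

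Levels of different genes were compared per kilobase of annotated exon. On that scale *Slc5a2* had the highest mean over the 7 libraries, 186 ± 91.6 CPM per kilobase (SD, n = 7), followed by *Slc5a10* at 176 ± 86.2, *Slc2a5* at 46.6 ± 12.97, *Slc2a2* at 34.7 ± 9.31, *Slc5a1* at 28.7 ± 10.8 and *Slc2a1* at 22.1 ± 10.3. The first 2 genes were above the other 4 in every library. Neighbours within each of these sets differed by less than the larger of their SDs. *Slc5a2* was first in C replicates 8 and 9 and in DM-22 replicate 2, and *Slc5a10* was first in the other 4 libraries, both treated mice among them.

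The 3 SGLT genes exchanged shares of a sum that itself moved little. Their summed level ran from 331 CPM per kilobase in C replicate 9 to 441 in DM+SGLT2i replicate 1, a 1.33-fold range. Within it *Slc5a2* made up 14.5%, 69.0% and 69.3% in C replicates 2, 8 and 9, 28.2% and 75.3% in DM-22, and 39.8% and 39.1% in DM+SGLT2i. *Slc5a10* took 20.3% to 74.2% of the sum, and *Slc5a1* 4.42% to 11.3%, each lowest in DM-22 replicate 2 and highest in C replicate 2. Per kilobase, *Slc5a2* was 2.69 and 2.72 times *Slc5a10* in C replicates 8 and 9 and 3.70 times in DM-22 replicate 2, but 0.195 times in C replicate 2, 0.443 times in DM-22 replicate 1, and 0.762 and 0.746 times in DM+SGLT2i. The sums of the 3 GLUT genes ran from 80.7 to 129.8 CPM per kilobase, with *Slc2a1* at 12.8% to 36.7%, *Slc2a2* at 16.5% to 46.6% and *Slc2a5* at 31.6% to 51.2% of them.

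**Figure D3:**
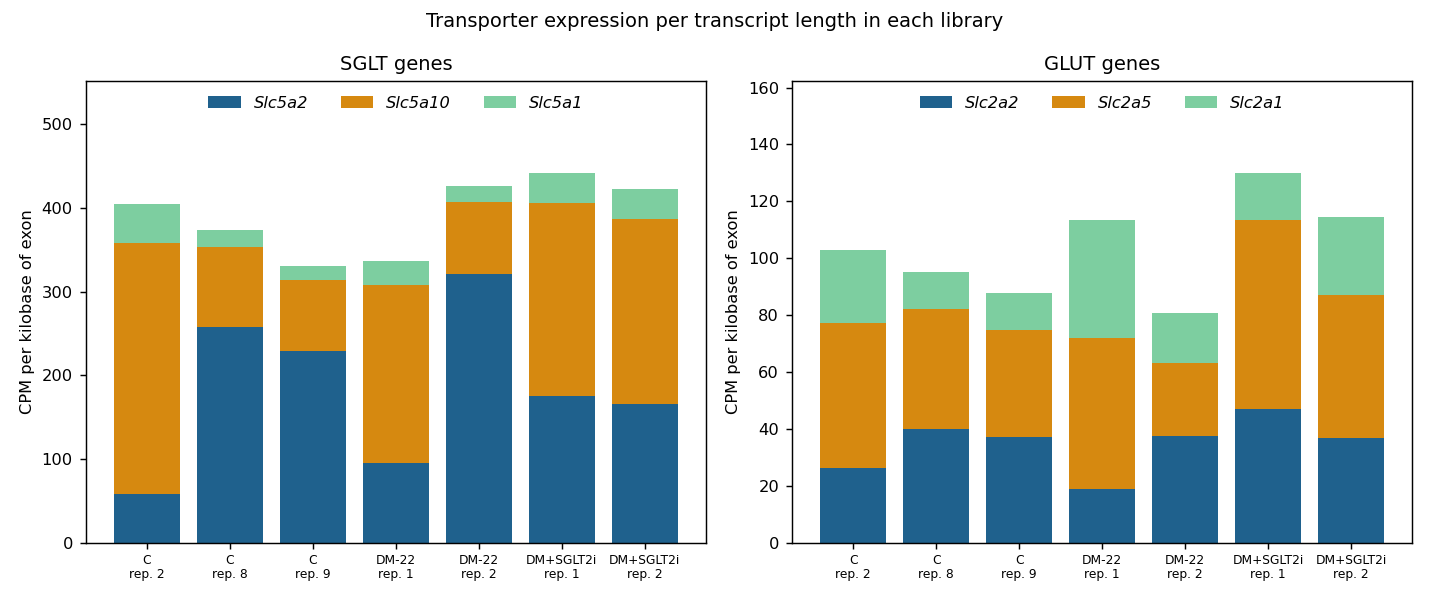
CPM per kilobase of exon (vertical axes, from 0) of the 3 SGLT genes and the 3 GLUT genes, stacked, in each of the 7 libraries (bars). The SGLT bars differ by 1.33-fold in height, while the *Slc5a2* part of them ranges from 14.5% in C replicate 2 to 75.3% in DM-22 replicate 2.

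Across the 7 libraries, log2 levels of *Slc5a1* and *Slc5a10* had a Pearson r of 0.97, those of *Slc5a2* and *Slc5a10* of -0.84, of *Slc5a2* and *Slc5a1* of -0.79, of *Slc2a1* and *Slc2a2* of -0.82, and of *Slc5a2* and *Slc2a2* of 0.71. These are descriptions over n = 7 points that come from the same libraries, with the same depth and the same scaling for both genes. The ratio of *Slc5a10* to *Slc5a1* stayed between 4.602 and 7.68 in CPM per kilobase while each gene ranged over 2.68-fold or more.

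Among all genes tested, the pattern closest to that of *Slc5a2* was that of *Sardh* (r = 0.99), a mitochondrial enzyme of glycine metabolism, at 389, 698 and 675 CPM in C, 467 and 840 CPM in DM-22, and 629 and 593 CPM in DM+SGLT2i. *Osbp2* and *Aldh6a1* came next. For *Slc5a10* the closest were *Rgs5*, a marker of pericytes, at 49.8 to 111 CPM, with *Micall2* and *Bmp3*. For *Slc5a1* they were *Spdl1*, at 0.897 to 2.25 CPM, *Lcp1*, an actin-bundling protein of leukocytes, at 43.5 to 81.3 CPM, and *Siglec1*, a macrophage receptor, at 0.416 to 13.98 CPM. *Slc2a2* ran with *Gpd1*, the cytosolic glycerol-3-phosphate dehydrogenase, at 261 to 562 CPM, then *Hps1* and *Pidd1*. *Slc2a1* ran with *Bcat2*, *Atg12* and *Isyna1*, and *Slc2a5* with *Tarm1*, *Nid2* and *Rb1*. With 7 libraries and 13976 genes, values of r this near 1 are found for all 6 members, the lowest of the 18 being 0.98.

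Several cell marker sums ran partly with single members, and in bulk tissue fewer cells of a type and less RNA per cell cannot be told apart. The 14 proximal tubule markers, all listed and led by *Slc34a1* and *Kap*, summed to 17087, 49633 and 46001 CPM in C replicates 2, 8 and 9, to 29320 and 49746 CPM in DM-22, and to 27091 and 32626 CPM in DM+SGLT2i. The sum was thus lowest in the control with the least *Slc5a2*, but not every marker was low there. *Aqp1* was at 1667 CPM in C replicate 2 against 1017 and 1031 CPM in C replicates 8 and 9. *Slc3a1* was at 883 CPM against 925 and 819 CPM, and each of the other markers was lower than in both of those controls. As a share of that sum *Slc5a2* ran from 0.935% in DM-22 replicate 1 to 1.88% in DM+SGLT2i replicate 1, a narrower range than its CPM. *Slc5a10*, in contrast, ran from 0.412% in DM-22 replicate 2 to 4.15% in C replicate 2, a wider one. The part of proximal tubule content in these values was not tested.

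Markers of single segments were in other orders than this sum. The 7 markers of S1 and S2 summed to 1815, 3867 and 3430 CPM in C, 1608 and 3560 CPM in DM-22, and 3957 and 3000 CPM in DM+SGLT2i, so the 2 libraries with the least *Slc5a2* and *Slc2a2* were also lowest here. The 7 listed S3 markers summed to 1814 to 5103 CPM, with the lowest value in C replicate 2, where *Slc5a1* was highest. Among them *Slc6a18* was higher in C replicate 2 (719 CPM) than in C replicates 8 and 9 (601 and 570 CPM), and the others were lower. The 6 markers of the thick ascending limb summed to 3581 to 13776 CPM. This sum was highest in DM-22 replicate 1, where *Slc2a1* was highest too. *Kcnj1* and *Cldn16* were higher in C replicate 2 (416 and 23.6 CPM) than in DM-22 replicate 1 (394 and 14.1 CPM). The other markers of this list were highest in DM-22 replicate 1. Markers of the inner medulla and urothelium summed to 4.79 CPM in DM-22 replicate 2 and to 287 CPM in DM-22 replicate 1, where *Slc14a2* of the inner medulla was at 267 CPM. The urothelial markers were each highest in DM+SGLT2i replicate 1, where *Slc14a2* was at 14.8 CPM. Tubular injury markers, led by *Spp1*, summed to 5110, 663 and 569 CPM in C, 1826 and 1214 CPM in DM-22, and 2199 and 2321 CPM in DM+SGLT2i, and the 7 macrophage markers to 556, 146 and 147 CPM in C, 164 to 296 CPM in DM-22 and 279 to 328 CPM in DM+SGLT2i. For both sums control replicate 2 was the highest library, as for *Slc5a1* and *Slc5a10*, and controls 8 and 9 were the lowest 2. Single markers differed in part. *Krt20* was highest in DM+SGLT2i replicate 1 (9.90 CPM), and *Csf1r* was highest in DM-22 replicate 1 (110 CPM) and lowest in DM-22 replicate 2 (37.3 CPM). *Sox9* was about as low in DM-22 replicate 1 (0.936 CPM) as in C replicate 9 (0.940 CPM). The other markers followed the order of the sums. The part of injury and macrophage content in the differences of *Slc5a1* and *Slc5a10* was not tested.

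**Figure D4:**
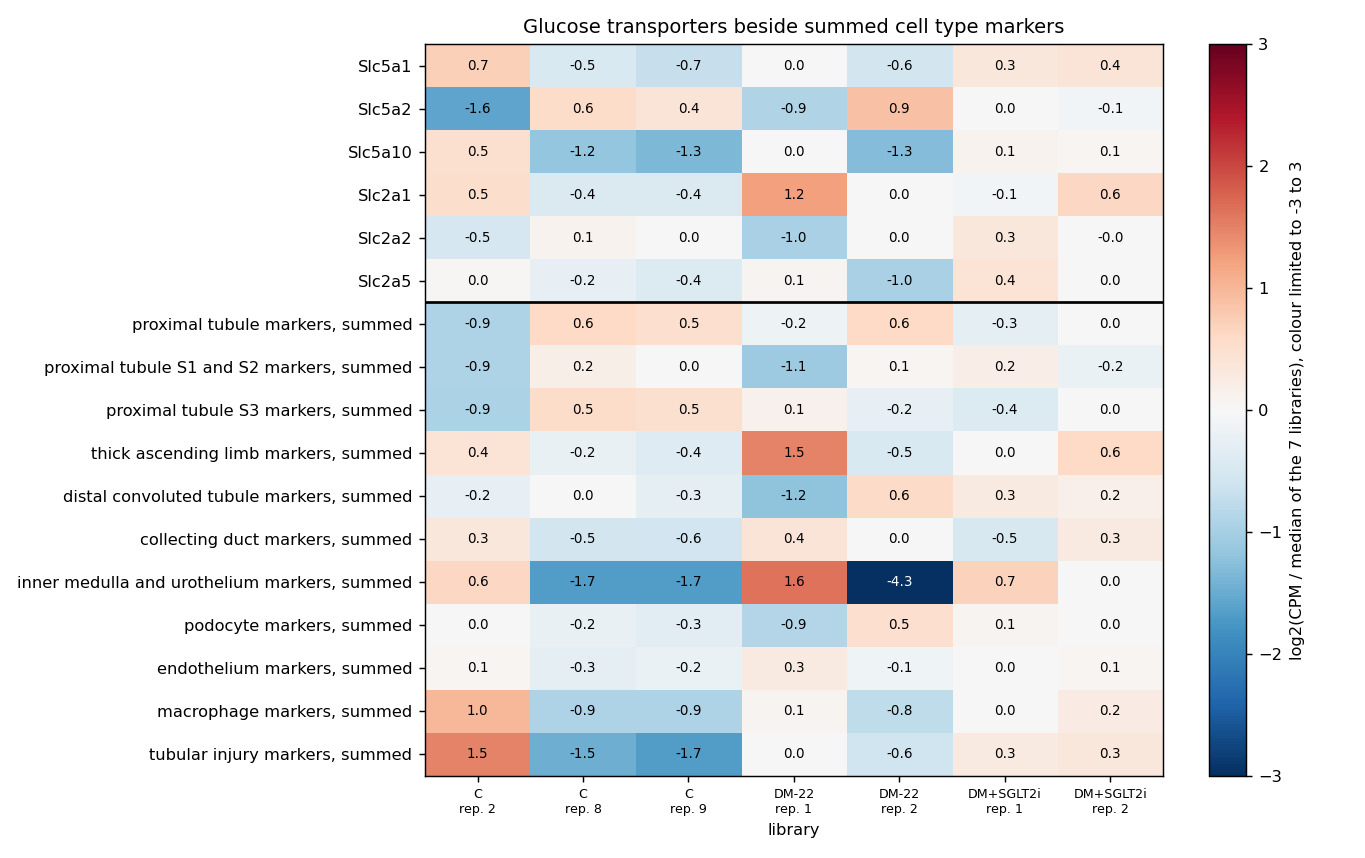
Log2 of each value over the median of the 7 libraries, for the CPM of the 6 transporter genes (above the line) and the summed CPM of marker lists (below it), with libraries as columns and colour limited to -3 to 3. Control replicate 2 is blue for *Slc5a2* (-1.59) and the 14 proximal tubule markers (-0.93), and red for *Slc5a10* (0.49) and tubular injury markers (1.48).

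Of the other SLC5 genes, 7 of 10 were listed and 5 tested, with 0 called in any comparison. *Slc5a12*, a lactate carrier, resembled *Slc5a2* with 56.2, 405 and 394 CPM in C, 87.3 and 322 CPM in DM-22, and 246 and 145 CPM in DM+SGLT2i. *Slc5a8*, the other lactate carrier, stayed between 274 CPM (DM-22 replicate 2) and 523 CPM (DM+SGLT2i replicate 1). *Slc5a11*, which carries myo-inositol, was at 57.8 to 113 CPM. Of these 3 relatives *Slc5a12* ranged most widely, and it was lowest in control replicate 2 and in DM-22 replicate 1.

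Of the other SLC2 genes and *Slc50a1*, all 10 were listed and 9 tested, again with 0 called. The insulin-responsive carrier *Slc2a4* (GLUT4) was at 55.8, 30.0 and 25.9 CPM in C, 57.7 and 47.6 CPM in DM-22, and 42.0 and 50.2 CPM in DM+SGLT2i, above controls 8 and 9 in all 4 diabetic mice. The difference of all diabetic mice from all 3 controls was 0.47 ± 0.27 on the log2 scale (adjusted p = 0.988), and from controls 8 and 9 it was 0.80 ± 0.14 (adjusted p = 0.0707). Adipose markers, which mark a tissue rich in GLUT4, summed to 1090 CPM in DM+SGLT2i replicate 1 and to 34.1 to 79.8 CPM in the other 6 libraries. *Slc2a4* was at 42.0 CPM in DM+SGLT2i replicate 1, and the part of adipose tissue in its values was not tested. *Slc2a8*, an intracellular carrier, was at 27.6, 22.2 and 21.6 CPM in C and at 34.1 and 29.1 CPM in DM-22, a difference of 0.41 ± 0.16 with an unadjusted p of 0.0419 and an adjusted p of 0.804. *Slc2a9*, a urate carrier, ran from 21.99 to 43.9 CPM, both extremes being in diabetic mice.

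Among 13 partners and regulators, 12 were listed and tested with 0 called. *Mlxipl* (ChREBP), a transcription factor that responds to glucose, was at 38.8, 117 and 125 CPM in C, 27.8 and 32.4 CPM in DM-22, and 78.0 and 45.1 CPM in DM+SGLT2i. It was lower in DM-22 than in C by 1.45 on the log2 scale (difference -1.45 ± 0.53, unadjusted p = 0.0300, adjusted p = 0.804), and the difference from controls 8 and 9 was -1.99 ± 0.26 (adjusted p = 0.0825). *Hnf4a*, a master regulator of proximal tubule genes, was at 532, 1242 and 1200 CPM in C, 729 and 1240 CPM in DM-22, and 816 and 707 CPM in DM+SGLT2i, low where *Slc5a2* was lowest. *Pdzk1ip1* (MAP17), a small protein that activates SGLT2, was at 350 to 701 CPM and its scaffold partner *Pdzk1* at 803 to 1303 CPM, each lowest in DM-22 replicate 1.

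The 5 genes of the sodium gradient and the 12 enzymes of glucose and fructose metabolism were all tested, with 0 called. The sodium pump subunits *Atp1b1* (2798 to 4186 CPM) and *Fxyd2* (1262 to 2201 CPM) varied much less than *Slc5a2*, each by under 2-fold. The gluconeogenic enzyme *Pck1* was at 844, 1196 and 1871 CPM in C, 980 and 1851 CPM in DM-22, and 2427 and 2043 CPM in DM+SGLT2i, so both treated mice exceeded the rest. Sorbitol dehydrogenase (*Sord*), at 1531 to 3059 CPM, was more even. Aldose reductase (*Akr1b3*), which turns glucose into sorbitol, was at 73.2, 48.2 and 59.7 CPM in C and between 70.8 and 91.3 CPM in the 4 diabetic mice, a difference of 0.44 ± 0.18 with an unadjusted p of 0.0460 and an adjusted p of 0.988. As a reference, *Cdkn1a* (p21), the cell cycle inhibitor on which the study centred, stood at 72.7, 4.63 and 5.36 CPM in C, 52.6 and 123 CPM in DM-22, and 78.6 and 77.3 CPM in DM+SGLT2i, and the p53 target *Phlda3* at 31.6, 5.18 and 4.81 CPM in C and 24.2 to 27.0 CPM in diabetic mice. With all 3 controls neither passed the test between all diabetic mice and C (2.62 ± 0.95 and 1.42 ± 0.63, adjusted p = 0.988 for both). With controls 8 and 9 alone both did (3.86 ± 0.33, adjusted p = 0.0449, and 2.26 ± 0.11, adjusted p = 0.0171). In that comparison 0.2% of all genes passed, and 0 of the 6 transporter genes.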

How the data were processed

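The deposited table held log2 values of normalized CPM for 17537 genes. Per the labels, the authors trimmed reads with Trim Galore, aligned them to mm10 with STAR and scaled them with edgeR (TMM); versions and the counting tool are not given in the sources used here. The constant added before the logarithm was removed to recover CPM, and every value then gave whole reads (tolerance 0.01), from which library totals were taken. Tests used limma 3.58.1 in R 4.3.3 (trend on mean level, 2-sided) on log2(CPM + 0.5) for the 13976 genes that reached 1 CPM in 2 or more libraries, all 3 groups fitted together, with Benjamini-Hochberg adjustment over those genes. Tables were made with Python 3.11.15. Exon lengths were from GENCODE M21, upstream sequences from RefSeq. The fit was also run on simulated counts. Those counts held no library set apart, so they do not show how often the fit would find a difference in these data. Members and lists were chosen with earlier results of these data known. Named were the members, the 3 highest members of each related list (2 are not reported here) and any with p under 0.05, and the 3 genes most like each member; single markers and those of opposite strands were named beside a member's value. Alternatives were another pseudocount, no filter, no TMM, other sample sets, limma-voom and a replicate block.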

Additional observations from a re-analysis of the deposited data

Results flagged for a closer look

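Over the 4 diabetic libraries, *Slc5a10* had 1 library far from the rest. DM-22 replicate 2 was at 205 CPM, whereas the others lay between 505 and 545 CPM. The gap to the nearest library was 0.882 of the whole range, above Dixon's 95% critical value for 4 samples. Chance alone flags about 1 in 20 such groups, and the rule was applied to each of the 6 members. It took untreated and treated diabetic mice as 1 group. The same library had the highest *Slc5a2* of the 7, at 930 CPM, and the lowest *Slc2a5*, at 86.7 CPM.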

How the results depend on the processing

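None of the 6 transporter genes passed an adjusted p of 0.05 under any of the 14 other settings tried, in any of the 4 comparisons where the setting applied. Of the 24 fold changes (6 genes, 4 comparisons), 12 kept their sign under every setting, among them all 6 except *Slc5a2* in DM+SGLT2i against C. The other 12 had a different sign without 1 library or more, as these ranges over the 7 fits that each leave out 1 library show. In DM-22 against C, the estimate ran from -0.41 to 0.30 for *Slc5a1*, -0.68 to 1.08 for *Slc5a2*, -0.63 to 0.67 for *Slc5a10*, -0.85 to 0.15 for *Slc2a2* and -0.77 to 0.29 for *Slc2a5*. In DM+SGLT2i against C, the estimate ran from -0.51 to 0.56 for *Slc5a2*. In DM+SGLT2i against DM-22, the estimate ran from -0.91 to 0.85 for *Slc5a2* and -0.96 to 0.27 for *Slc2a1*. In all diabetic mice against C, the estimate ran from -0.0901 to 0.62 for *Slc5a1*, -0.50 to 0.63 for *Slc5a2*, -0.27 to 0.23 for *Slc2a2* and -0.18 to 0.35 for *Slc2a5*. The estimates that kept their sign also moved widely: 0.11 to 1.34 for *Slc2a1* in DM-22 against C, 0.23 to 0.93 for *Slc5a1*, 0.41 to 1.33 for *Slc5a10*, 0.0199 to 0.74 for *Slc2a1*, 0.12 to 0.47 for *Slc2a2* and 0.21 to 0.61 for *Slc2a5* in DM+SGLT2i against C, 0.35 to 0.91 for *Slc5a1*, 0.0814 to 1.38 for *Slc5a10*, 0.15 to 1.15 for *Slc2a2* and 0.12 to 1.17 for *Slc2a5* in DM+SGLT2i against DM-22, 0.049 to 0.96 for *Slc5a10* and 0.24 to 0.87 for *Slc2a1* in all diabetic mice against C. Where a group was left with 1 mouse, that mouse was assumed to vary like the others. Without TMM factors, *Slc5a10* was at -0.0703 in DM-22 against C and *Slc5a2* at 0.0747 in DM+SGLT2i against DM-22, and the median of all genes in the latter comparison moved from 0.00451 to 0.106. The number of genes called over all genes was 0 with all libraries and reached 2 (DM-22 against C), 17 (DM+SGLT2i against C) and 28 (all diabetic mice against C) without control replicate 2; it was 0 under every other setting, the lowest and highest over single libraries left out thus being 0 and those values. Across the genes tested, replicate 1 minus replicate 2 in DM-22 and in DM+SGLT2i (2 same-numbered pairs) had r = -0.04. So few pairs cannot tell whether these mice share more than a number, and pairing was not decided. With the replicate block, 0 members and 0 genes were called in DM+SGLT2i against DM-22. Before adjustment, *Slc5a1* (0.63 ± 0.215 on the log2 scale) and *Slc2a5* (0.65 ± 0.228) passed the 0.05 threshold in limma. These were 2 of 6 members, and *Slc2a5* passed only narrowly. At that threshold 537 of the 13976 genes tested were higher, both members among them, and 159 were lower. Neither member passed after adjustment, and the fit used only the 4 diabetic libraries.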
